A study of Mus musculus with 11 samples.

Results

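The 10 genes described here encode the 5 NF-kB subunits (Rela, Relb, Rel, Nfkb1 and Nfkb2), 3 members of the IkB family that bind them (Nfkbia, Nfkbie and Bcl3) and 2 ubiquitin regulators that act on the signal upstream (Tnfaip3 and Birc3). They were taken by symbol from the 20893 genes of the table, as a list drawn up with earlier results of these data known, and each symbol matched 1 row. RNA-seq was performed on total RNA from 11 mouse livers on the C57BL/6 background, all carrying ROSA26-rtTA-IRES-EGFP, which supplies the doxycycline-dependent transactivator rtTA. The 4 control livers have WT in place of tetYAP in their genotype and are listed as fed doxycycline for 7 days, while tetYAP mice, which carry a doxycycline-inducible and constitutively active YAP, were fed doxycycline for 3 days (4 livers) or 7 days (3 livers). In the study's methods, Alb-CRE switches on rtTA, so that the transgene is expressed in albumin-producing cells, whereas the RNA came from whole homogenized liver. The control livers serve both time points, and no group of uninduced tetYAP mice or of controls fed for 3 days was analysed here. Ages were not given in the labels.

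NF-kB transcription factors are dimers of Rel family proteins that IkB proteins hold inactive in the cytoplasm. Tumor necrosis factor, interleukin 1 and microbial products activate the IKK kinases, which mark the IkB proteins for destruction and let Rela-containing dimers enter the nucleus, whereas the non-canonical branch acts through processing of the Nfkb2 precursor and through Relb. Dimers in the nucleus switch on genes for several of their own subunits and inhibitors, so that the pathway limits itself, and in the liver both hepatocytes and macrophages use it.

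Depth was 1251396 to 5495697 reads on genes in the control livers, 2660233 to 3681416 at 3 days and 5312486 to 5941357 at 7 days, and control liver 4 was the shallowest. Values are eRPKM, read counts scaled for exon length and library depth, and are used here to compare levels of the members. For the highest genes such a comparison may not hold. Alb, Apoa1 and Apob had nearly equal means in each group. They were 514, 494 and 493 eRPKM in controls, 377, 375 and 389 at 3 days and 249, 264 and 254 at 7 days. The reason was not tested. Ctgf and Cyr61, widely used YAP targets, measured 5.20 to 14.2 and 5.76 to 14.3 eRPKM in control livers, 15.3 to 34.2 and 26.8 to 53.4 at 3 days, and 87.3 to 103 and 90.5 to 91.3 at 7 days, with no overlap between groups. The Yap1 row was at 13.9 to 21.1, 15.3 to 19.3 and 17.4 to 19.0 eRPKM. Xist exceeded the Y-linked gene Ddx3y in 2 of 4 control livers, 2 of 4 livers at 3 days and 3 of 3 livers at 7 days, so sex was not balanced between the groups.

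After 7 days of YAP induction Tnfaip3, Nfkbie, Nfkb2 and Relb rose above control livers, and no member fell. The largest increases were in the deubiquitinase gene Tnfaip3 (log2 fold change 2.79) and in the inhibitor gene Nfkbie (2.20). A gene was called where the limma test gave a Benjamini-Hochberg adjusted p under 0.01 over the 14244 genes tested and an absolute log2 fold change above 0.5, with fold changes on the log2(eRPKM + 0.5) scale, which understates changes of low genes. All 10 members passed the filter on low values, and 4 of 10 were called higher at 7 days, where 18% of all tested genes were called higher and 5.77% lower (23.8% in either direction). The median log2 fold change was 0.85 over the members and 0.26 over all genes tested.

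At 3 days none of the members was called by limma, in a comparison where 0.0421% of all tested genes were called higher and none lower. None had an unadjusted p under 0.05, and limma-voom on reads recovered from the values called none either. Members' log2 fold changes ran from -0.26 for Nfkb1 to 0.37 for Tnfaip3, and no member separated the 4 livers at 3 days from the 4 control livers, against 3.38% of all genes with every 3-day liver higher and 2.25% with every one lower. The lowest exact two-sided permutation p among the 10 was 0.143, where the design could reach 0.0286. The 95% intervals of all 10 contained 0, the narrowest being -0.64 to 0.12 for Nfkb1 and the widest -0.58 to 1.007 for Rel, so moderate changes in either direction were not detectable at this depth and number of livers. Against the livers at 3 days, 5 of 10 members were called higher at 7 days, where 14% of all genes were called higher and 5.31% lower (19.3% in either direction): Tnfaip3, Nfkbie, Nfkb2, Relb and Nfkb1.

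**Figure D1:**
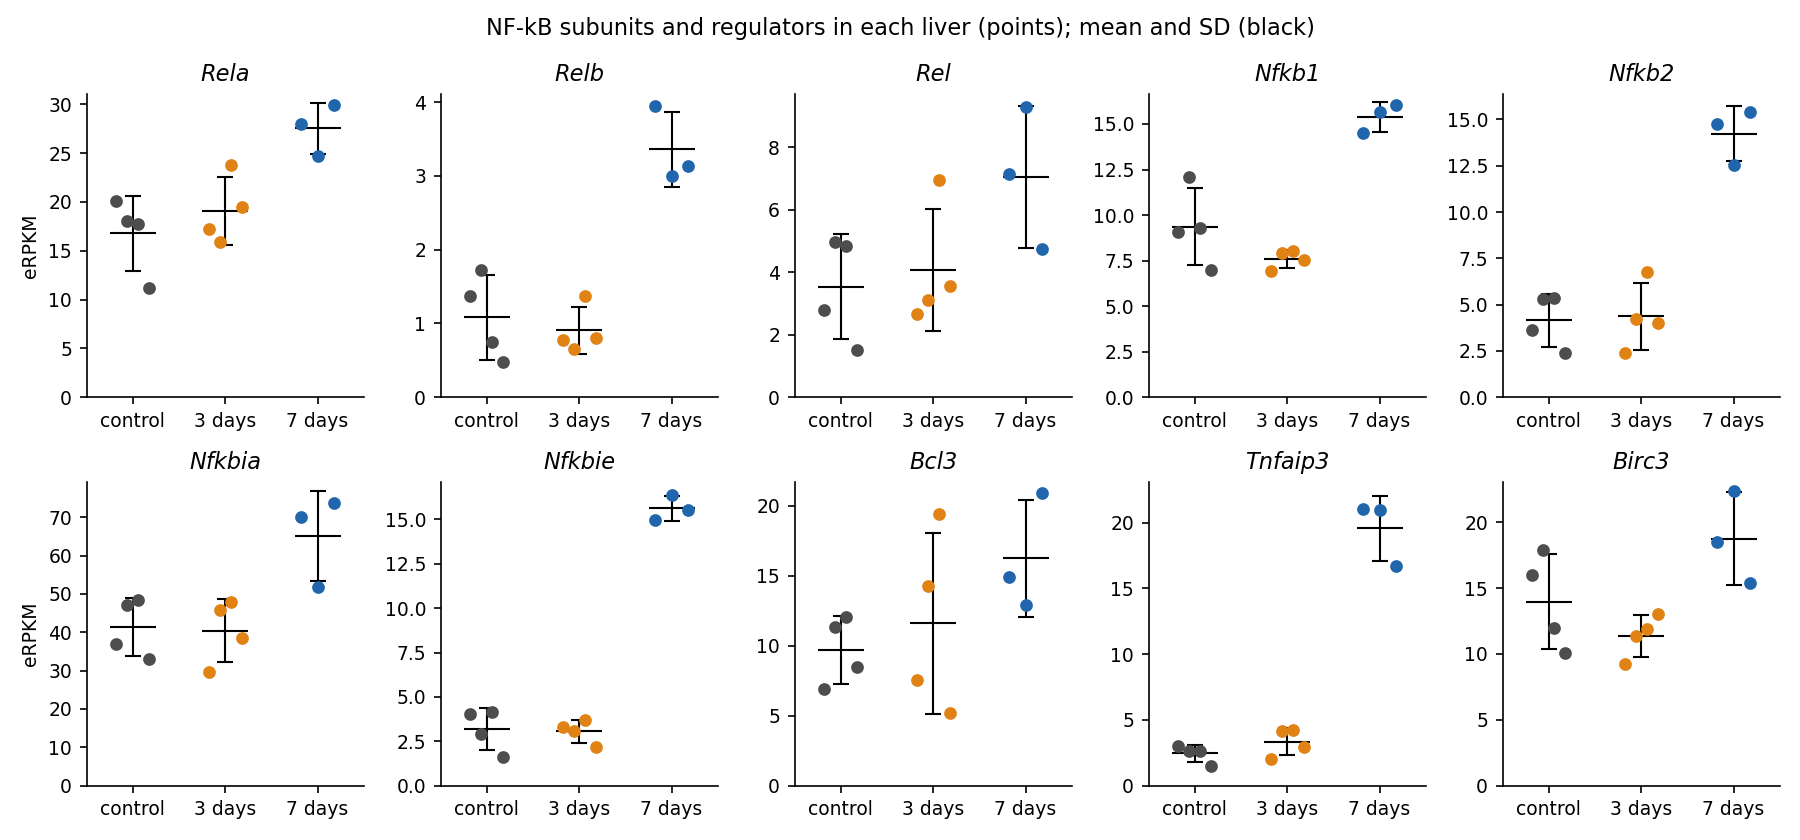
eRPKM (y axis, starting at 0) of the 10 members in each control liver and each liver at 3 and 7 days of YAP induction; each point is 1 liver, and black lines give the mean and SD. Tnfaip3, Nfkbie, Nfkb2 and Relb at 7 days lie well above both other groups, whereas the points of Rel, Bcl3 and Birc3 overlap between groups.

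Among the Rel family subunits, Rela encodes the main activating subunit of the canonical pathway. Rela (mm9 chr19:5637483-5648130, plus strand) measured 20.1, 18.1, 17.7 and 11.2 eRPKM in control livers 1 to 4, 17.2, 15.9, 23.7 and 19.5 at 3 days and 27.9, 24.7 and 29.9 at 7 days. Its 3 livers at 7 days lay above all 8 others, by a margin that was small beside the spread of each group. The log2 fold change over controls was 0.73 (SE 0.21), and with an adjusted p of 0.0150 (limma) it was not called.

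Nfkb1 encodes the p105 precursor of p50, the usual partner of Rela. Its levels (mm9 chr3:135247619-135354511, minus strand) were 9.06, 12.1, 9.31 and 6.97 eRPKM in control livers, 6.93, 7.90, 8.01 and 7.56 at 3 days and 14.5, 15.6 and 16.1 at 7 days. The livers at 3 days were tightly grouped at or just below the lower end of the control range, and those at 7 days stood above both groups. The increase from 3 to 7 days was called (log2 fold change 0.97, SE 0.19, limma adjusted p = 0.00198), whereas the increase over controls was 0.71 (SE 0.19) at an adjusted p of 0.0102. Without control liver 2, the highest of its group, the latter became 0.84 with an adjusted p of 0.00425 and passed the threshold, while the call against 3 days was lost without liver 2 (adjusted p = 0.0114) or liver 3 at 7 days (adjusted p = 0.0143). The call against 3 days was also lost when only livers with more Xist than Ddx3y were kept (adjusted p = 0.0105).

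Nfkb2, which encodes the p100 precursor of the non-canonical subunit p52, had the largest increase of the 5 subunits. Values at mm9 chr19:46379227-46386580, plus strand were 3.61, 5.30, 5.34 and 2.37 eRPKM in control livers, 2.41, 4.22, 6.78 and 4.03 at 3 days and 14.8, 12.5 and 15.4 at 7 days. Every liver at 7 days exceeded the highest of the other 8, 6.78 eRPKM, and the mean went from 4.16 ± 1.44 eRPKM (SD, n = 4) in controls to 14.2 ± 1.498 eRPKM (SD, n = 3). This amounted to a log2 fold change of 1.72 (95% interval 1.02 to 2.41, limma adjusted p = 0.00121), the 91.7th percentile of all tested genes. The call against 3 days (log2 fold change 1.67, adjusted p = 0.00189) was lost without liver 1 (adjusted p = 0.0103) or liver 3 at 7 days (adjusted p = 0.0124), and with log2 depth as covariate (adjusted p = 0.0116). Exons of Nfkb2 overlap those of Psd in the GENCODE annotation of mm9, and the library kit does not keep strand, so reads of the overlap cannot be told apart.

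Relb, the partner of p52 in the non-canonical branch, was the lowest member in every group. It was covered by 2 to 32 reads in control livers, 7 to 17 at 3 days and 56 to 71 at 7 days. The corresponding levels were 1.38, 1.73, 0.742 and 0.476 eRPKM, 0.782, 0.656, 1.38 and 0.809 eRPKM and 3.95, 3.00 and 3.14 eRPKM. All 3 livers at 7 days lay above the highest control, at a log2 fold change of 1.36 (95% interval 0.68 to 2.03, limma adjusted p = 0.00460). This call was lost under more alternatives than those of Tnfaip3, Nfkbie and Nfkb2. Adjusted p rose to 0.0143 without control liver 3, to 0.0133 to 0.0259 without any single liver at 7 days, to 0.0136 with log2 Xist as covariate, and to 0.0301 when only livers with more Xist than Ddx3y were kept. With the replicate block it was 0.0184, and 0.0146 against 3 days, so that neither call of Relb held. The call against 3 days (log2 fold change 1.48, adjusted p = 0.00350) was lost without liver 2 (adjusted p = 0.0107) or liver 4 at 3 days (adjusted p = 0.0103) and without any single liver at 7 days (adjusted p = 0.0117 to 0.0204). It was also lost with log2 Xist (adjusted p = 0.0118) or log2 depth (adjusted p = 0.0120) as covariate. The same held in livers with more Xist than Ddx3y (adjusted p = 0.0284) and after quantile normalization (adjusted p = 0.0387).

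Rel, which encodes c-Rel, a subunit used mainly by leukocytes, overlapped between the groups. It ranged over 1.501 to 4.98 eRPKM in control livers, 2.68 to 6.94 at 3 days and 4.74 to 9.28 at 7 days, and the lowest liver at 7 days was below 2 of the control livers. The log2 fold change of 0.97 at 7 days (95% interval 0.11 to 1.83) did not pass (limma adjusted p = 0.0700).

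**Figure D2:**
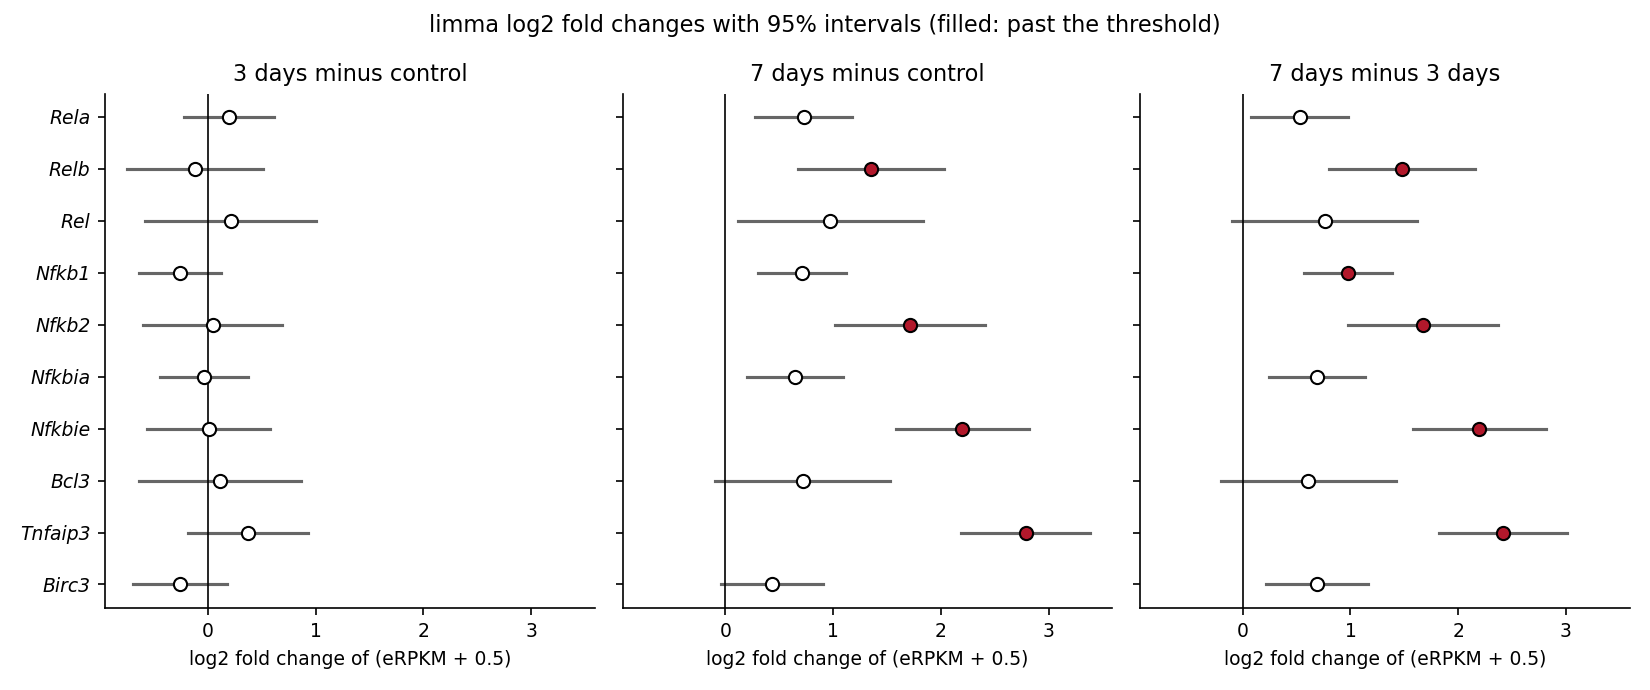
log2 fold changes of (eRPKM + 0.5) with 95% intervals for the 10 members in 3 comparisons of the limma fit; filled points passed the threshold. All intervals at 3 days cross 0, 4 points are filled at 7 days against control livers, and 5 at 7 days against 3 days.

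Within the IkB family, Nfkbia encodes IkB-alpha, the inhibitor that is degraded and resynthesized within one round of canonical signaling. Nfkbia was the highest of the 10 members in every group, at 36.9, 47.0, 48.5 and 32.9 eRPKM in control livers, 29.5, 45.7, 47.9 and 38.6 at 3 days and 69.96, 51.8 and 73.6 at 7 days. Its 7-day livers lay above all others, although liver 2 at 51.8 eRPKM exceeded the highest control by only a little. The log2 fold change was 0.65 (SE 0.21, limma adjusted p = 0.0246) and was not called. It was called after quantile normalization (adjusted p = 0.00659) and with the label suffix MF, which the labels do not explain, as covariate (log2 fold change 0.81, adjusted p = 0.00265).

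Nfkbie encodes IkB-epsilon, an inhibitor that in other systems is resynthesized later than IkB-alpha. Its levels were 4.01, 2.91, 4.16 and 1.60 eRPKM in control livers, 3.31, 3.09, 3.70 and 2.18 at 3 days and 15.0, 16.4 and 15.5 at 7 days. The 8 livers of the first 2 groups overlapped fully, and the lowest liver at 7 days stood far above the highest of them. The mean of 15.6 ± 0.710 eRPKM (SD, n = 3) compared with 3.17 ± 1.19 eRPKM (SD, n = 4) in controls. The log2 fold change was 2.20 (95% interval 1.58 to 2.82, limma adjusted p = 8.72e-05), the 95.3rd percentile of all tested genes, and 2.19 against 3 days (adjusted p = 0.000123).

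Bcl3, an atypical IkB protein that works in the nucleus with p50 and p52 homodimers, varied widely within groups. It ranged over 6.92 to 12.1 eRPKM in control livers, 5.17 to 19.4 at 3 days and 12.9 to 20.9 at 7 days. The 3 livers at 7 days were above all controls and overlapped the livers at 3 days, and the log2 fold change of 0.72 over controls did not pass (limma adjusted p = 0.150). Its exons overlap those of Gm16175, which could share its reads.

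Of the ubiquitin regulators, Tnfaip3 encodes A20, which edits ubiquitin chains on signaling proteins and shuts off the response to tumor necrosis factor. Tnfaip3 (mm9 chr10:18720716-18735463, minus strand) measured 3.03, 2.61, 2.63 and 1.52 eRPKM in control livers, 2.06, 4.19, 4.25 and 2.93 at 3 days and 21.0, 20.9 and 16.7 at 7 days. At 3 days 2 of the 4 livers were above all controls and 2 lay among them, and at 7 days every liver was far above both groups. The mean rose from 2.45 ± 0.650 eRPKM (SD, n = 4) to 19.6 ± 2.504 eRPKM (SD, n = 3), a log2 fold change of 2.79 (95% interval 2.19 to 3.39, limma adjusted p = 1.5e-05). This was 6.91-fold on the log2(eRPKM + 0.5) scale and the 97.9th percentile of all tested genes, and against 3 days the log2 fold change was 2.42 (adjusted p = 5.08e-05). By mean eRPKM, Tnfaip3 ranked 9 of the 10 members in controls and 8 in the livers at 3 days, whereas after 7 days it ranked 3, behind Nfkbia and Rela.

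Birc3 encodes cIAP2, a ubiquitin ligase of the tumor necrosis factor receptor complex. In contrast to Tnfaip3, it ranged over 10.03 to 17.9 eRPKM in control livers, 9.20 to 13.0 at 3 days and 15.4 to 22.4 at 7 days. Liver 3 at 7 days lay within the control range, and neither the difference from controls (log2 fold change 0.43, limma adjusted p = 0.140) nor that from 3 days (0.69, adjusted p = 0.0273) was called.

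Across the 10 members, 8 had all 3 livers at 7 days above all 4 control livers, as did 36.7% of all tested genes, and the exceptions were Rel and Birc3. Against the livers at 3 days the count was again 8, now without Rel and Bcl3, beside 31.3% of all genes. Rela was second after Nfkbia in every group. In control livers the neighbours in the order of mean level had overlapping ranges, except that Nfkbia stood clear of Rela, and Nfkb1 clear of Nfkb2. At 7 days Tnfaip3, Birc3, Bcl3, Nfkbie, Nfkb1 and Nfkb2 followed Rela, each overlapping with its neighbour, and only Rel and Relb lay clearly below. The direction of all 10 members at 7 days against controls stayed positive under both other scalings, which moved the median of all genes from 0.26 to 0.03 (median-ratio size factors) and to -0.06 (quantile normalization). Under quantile normalization Relb was no longer called (0.78, adjusted p = 0.0339).

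Nfkb2 and Relb made up a larger share of the family at 7 days, a description without a test. The 5 subunits summed to 22.5 to 42.2 eRPKM in control livers, 30.01 to 46.8 at 3 days and 65.2 to 69.3 at 7 days, so that the 7-day livers stood clear of the others. Nfkb2 made up 11.7% ± 1.95 (SD, n = 4) of this sum in controls, 11.8% ± 2.81 (n = 4) at 3 days and 21.0% ± 1.58 (n = 3) at 7 days, with no overlap between 7 days and the other groups. Rela took 48.4% ± 4.89 in controls, 53.2% ± 3.49 at 3 days and 40.7% ± 2.64 at 7 days, and its range at 7 days (37.9% to 43.2%) overlapped that of controls (42.9% to 54.4%). Relb took 1.96% to 4.10% of the sum in controls, and its share of 4.53% to 5.78% at 7 days lay above the 2.07% to 2.94% at 3 days as well. For Nfkb1 the share at 7 days, 21.2% to 24.0%, lay just below its control range of 24.5% to 31.0% and within that at 3 days, 17.1% to 24.8%, and the shares of Rel overlapped between all groups.

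**Figure D3:**
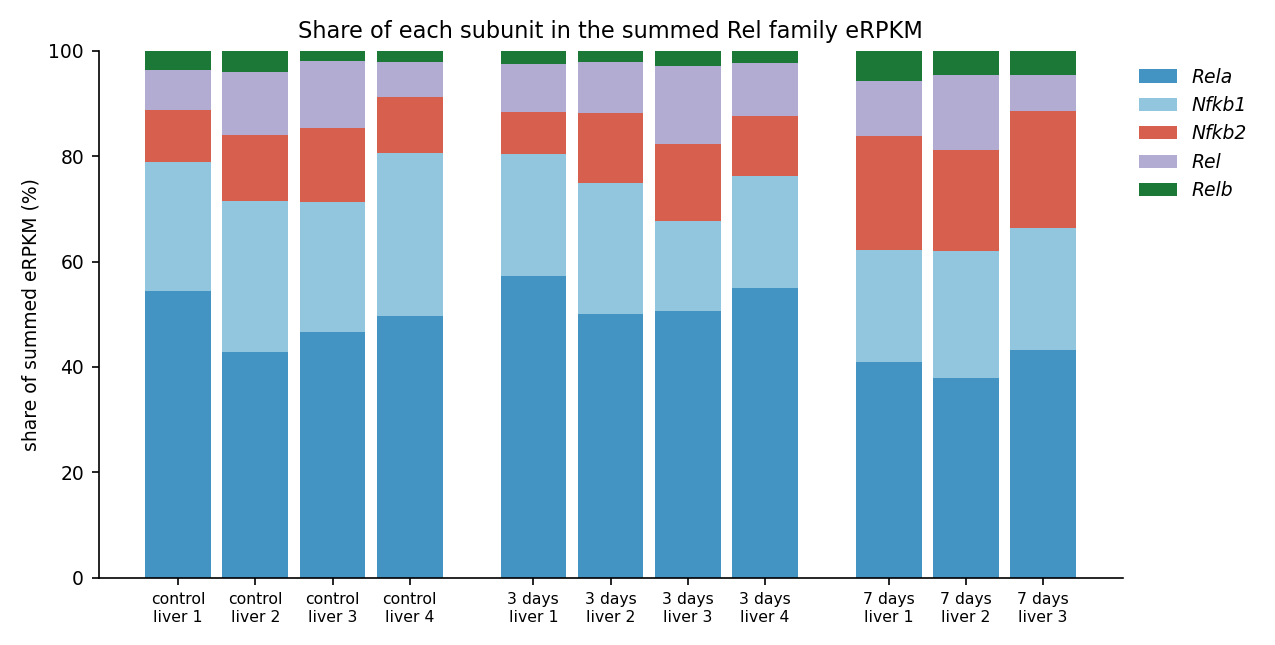
Share (%) of each of the 5 subunit genes in the summed Rel family eRPKM of each liver, 1 bar per liver, so that each bar adds up to 100%. The Nfkb2 segment is 19.2% to 22.2% in the livers at 7 days and 9.78% to 14.1% in control livers.

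Ratios of eRPKM were also taken within 5 pairs of members, formed after the values were seen and given here without a test. Nfkb2 per Nfkb1 was 0.34 to 0.573 in control livers, and the 0.348 to 0.847 at 3 days overlapped the 0.803 to 1.02 at 7 days. Nfkbie per Nfkbia was 0.0487 to 0.109 in controls and 0.0565 to 0.112 at 3 days, and 0.211 to 0.316 at 7 days. Relb per Rela lay at 0.0419 to 0.0957 in controls, 0.0413 to 0.0579 after 3 days and 0.105 to 0.141 after 7 days. For Tnfaip3 per Birc3 the controls lay at 0.146 to 0.22, the livers at 3 days lay at 0.224 to 0.368 and those at 7 days reached 0.936 to 1.14. Only in this one of the 5 ratios were the livers at 3 days, too, all above controls. The gap was narrow (0.22 against 0.224), and neither gene was called at 3 days. Nfkbia per Rela, on the other hand, overlapped in all groups, at 1.83 to 2.95, 1.72 to 2.88 and 2.09 to 2.504.

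Promoter sequence was examined because several of the members that rose are known to be driven by NF-kB itself. Sequences of the 250 bases before the start site came from RefSeq (GRCm38.p6) and were placed on mm9 by exact match, for 8 of the 10 members, with more than 1 start for Tnfaip3 and Nfkb2. Nfkb1 and Relb had no entry. The 3 windows that follow are a choice. They belong to Nfkbie and Nfkb2, 2 of the 4 members called at 7 days against controls, and to Nfkbia, which is well expressed in control livers. Capitals mark matches to GGGNNNNNCC, a loose form of the kappaB site searched on both strands, with overlapping matches joined.
Nfkbie, chr17:45692399-45692648, plus strand: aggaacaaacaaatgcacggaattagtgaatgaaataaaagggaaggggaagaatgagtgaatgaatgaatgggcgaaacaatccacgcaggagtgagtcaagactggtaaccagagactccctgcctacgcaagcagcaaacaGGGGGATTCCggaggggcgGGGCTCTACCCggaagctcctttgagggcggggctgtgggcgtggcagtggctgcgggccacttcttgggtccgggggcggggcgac
Nfkb2, first start, chr19:46378977-46379226, plus strand: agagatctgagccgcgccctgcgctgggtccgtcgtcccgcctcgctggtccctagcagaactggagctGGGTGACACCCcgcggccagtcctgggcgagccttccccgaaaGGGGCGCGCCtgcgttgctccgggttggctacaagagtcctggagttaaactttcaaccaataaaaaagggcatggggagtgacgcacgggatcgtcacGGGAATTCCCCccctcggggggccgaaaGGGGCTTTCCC
Nfkbia, chr12:56593635-56593884, minus strand: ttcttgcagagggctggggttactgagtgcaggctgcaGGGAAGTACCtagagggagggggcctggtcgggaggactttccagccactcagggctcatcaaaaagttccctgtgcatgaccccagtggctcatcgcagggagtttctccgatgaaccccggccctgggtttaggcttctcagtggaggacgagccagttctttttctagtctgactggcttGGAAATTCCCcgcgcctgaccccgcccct

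For Tnfaip3 the last 30 bases before the first RefSeq start are shown, since a match lies right beside that start. In the GENCODE annotation of mm9 the gene begins further upstream, at 18735463 on the minus strand, and these bases lie inside it.
Tnfaip3, first start, chr10:18735217-18735246, minus strand: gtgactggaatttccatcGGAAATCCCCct

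By the RefSeq starts, the capitals in Tnfaip3 lie 12 to 3 bases before the start, and in Nfkbia the match GGAAATTCCC lies 29 to 20 bases before it. Nfkb2 holds GGGAATTCCC 39 to 30 bases and GGGCTTTCCC 10 to 1 bases before its first start. A member was counted if any of its promoters matched, and the 8 members have 11 promoters. The percentages given beside these counts take each promoter on its own. Members with more than 1 start thus had more chances of a match, and counts and percentages are not directly comparable. The loose form was in a promoter of all 8 members, and 45.8% of all 32851 RefSeq promoters searched also hold it. A stricter degenerate kappaB consensus, chosen after the first search was seen, matched 5 of the 8 (Tnfaip3, Rel, Nfkbia, Nfkbie and Nfkb2), beside 3.90% of all promoters. Of these 5, Tnfaip3, Nfkbie and Nfkb2 were called at 7 days against controls and Rel and Nfkbia were not. The 3 members without a match (Rela, Bcl3 and Birc3) were not called, and Relb, the other called member, had no sequence. The TEAD motif CATTCC was found in 1 member (Nfkb2, at its second start, within bases that also match the loose kappaB form), beside 12.6% of all promoters. The AP-1 motif TGANTCA was in 3 members (Tnfaip3, Nfkbie and, at its second start, Nfkb2), beside 6.75% of all promoters. These matches describe letters in the windows and do not show binding. The members were chosen as NF-kB subunits and regulators, and a relation between matches and calls was not tested.

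The remaining genes of the pathway were read from lists of other IkB proteins, IKK and upstream kinases, adaptors, other negative regulators and widely used targets, of which 58 genes were tested. At 7 days 17 of the 58 were called higher than in control livers and 2 lower, beside 18% and 5.77% of all tested genes. At 3 days none was called in either direction by limma or limma-voom, with 4 at an unadjusted p under 0.05. Their median log2 fold change at 7 days was 0.69, beside 0.26 for all genes. Of 11 kinase genes 2 were called higher and 1 lower, of 13 adaptor genes 1 was called higher, and of 20 widely used targets 10 were called higher and 1 lower.

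Among signaling genes, Nfkbid, an atypical nuclear IkB protein, ranged over 0 to 0.734 eRPKM in control livers and 3.55 to 7.52 at 7 days (limma adjusted p = 0.000239). Map3k14, which encodes the NIK kinase of the non-canonical branch, ranged over 0.915 to 1.60 eRPKM in controls and rose to a range of 3.29 to 4.25 at 7 days (log2 fold change 1.29, adjusted p = 0.00155), with exons that overlap those of 1700028N14Rik. Tab1, an activator of the TAK1 kinase, had a log2 fold change of 1.24 and the adaptor gene Bcl10 one of 1.05. Conversely, Chuk, which encodes IKK-alpha, ranged over 83.0 to 94.1 eRPKM in controls and fell to a range of 36.0 to 44.2 at 7 days (log2 fold change -1.15, adjusted p = 0.000181). The genes of the other IKK subunits, Ikbkb and Ikbkg, were at 0.20 and -0.21 and were not called.

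Of the 11 other negative regulators 3 rose, namely the deubiquitinase genes Otud7b (log2 fold change 2.06) and Cyld (0.67) and Tnip1, which encodes an A20-binding protein (1.56). Gadd45b led the targets with a log2 fold change of 4.89, at 0.613 to 5.15 eRPKM in controls and 54.4 to 90.9 at 7 days. The macrophage growth factor gene Csf1 (3.53) and the monocyte chemokine gene Ccl2 (2.93) followed. Gadd45b and Csf1 at 3 days ranged over 1.15 to 24.4 and 5.49 to 33.1 eRPKM and thus reached from control levels to well above them. Sod2, named because it was the single target called lower, fell by 0.56 on the log2 scale at 7 days.

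**Figure D4:**
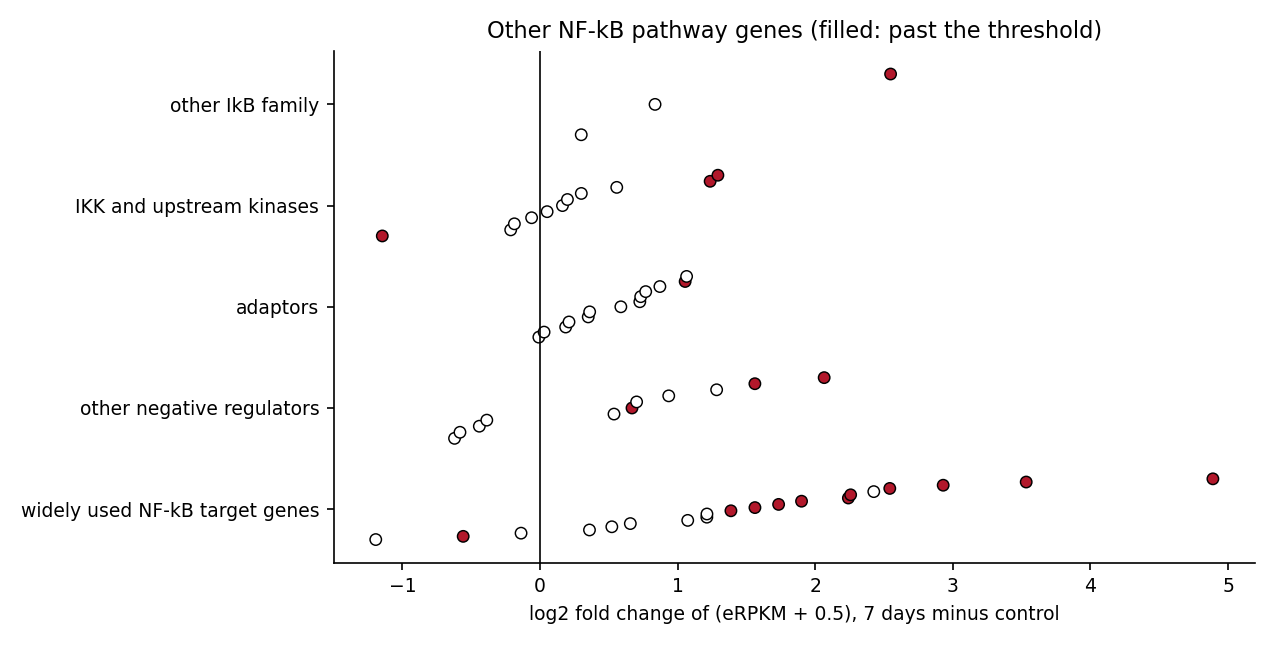
log2 fold change of (eRPKM + 0.5) at 7 days against control livers (x axis) for each tested gene of the 5 other pathway lists; filled points passed the threshold, and points are spread vertically by rank within a list only. Filled points lie mostly to the right among the widely used targets, and 1 kinase gene, Chuk, lies at -1.15.

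Markers of leukocytes moved with the members at 7 days. Pan-leukocyte markers (Ptprc, Laptm5 and Coro1a) summed to 18.4 to 37.5 eRPKM in control livers, 21.9 to 36.4 at 3 days and 128 to 160 at 7 days, and 3 of 3 were called higher at 7 days. Of all tested genes 18% were called higher at 7 days than in controls. The macrophage and monocyte list summed to 149 to 230, 173 to 262 and 557 to 604 eRPKM (7 of 9 called), and the Kupffer cell list to 297 to 401, 268 to 436 and 794 to 819 eRPKM (6 of 8 called). Among these 3 lists no marker was at 0 in any liver.

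Neutrophil markers reached 37.2 to 52.7 eRPKM at 7 days against 17.9 to 28.5 in controls (2 of 5 called), whereas T and NK cell markers (1 of 10 called), B cell markers and dendritic cell markers (none of 5 called in each) overlapped between 7 days and controls. Control liver 4 listed 6 of the 10 T and NK cell markers at 0, and 3 cholangiocyte markers, Krt7, Epcam and Cftr, were at 0 in the same liver. The hepatocyte list summed to 1562 to 1796 eRPKM in the 7-day livers, with 3 of 10 called lower, against 2133 to 6299 in control livers and 2537 to 3341 after 3 days. Among control livers this sum rose with falling depth, from 2133 in the deepest library (liver 2) to 6299 in the shallowest (liver 4). The libraries at 7 days were deep as well, and the part of depth in their lower sums was not tested. Of the cholangiocyte markers 1 of 5 and of the endothelial markers 2 of 7 were called higher, and 1 of 7 stellate cell markers was called lower. Beside these list counts, 18% of all tested genes were called higher and 5.77% lower. Endothelial markers went both ways, with log2 fold changes from -0.77 for Clec4g to 1.93 for Lyve1. In these bulk livers a change in the number of cells of a type and a change in RNA per cell cannot be told apart, and the part of leukocyte RNA in the increases of Tnfaip3, Nfkbie, Nfkb2 and Relb was not tested.

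**Figure D5:**
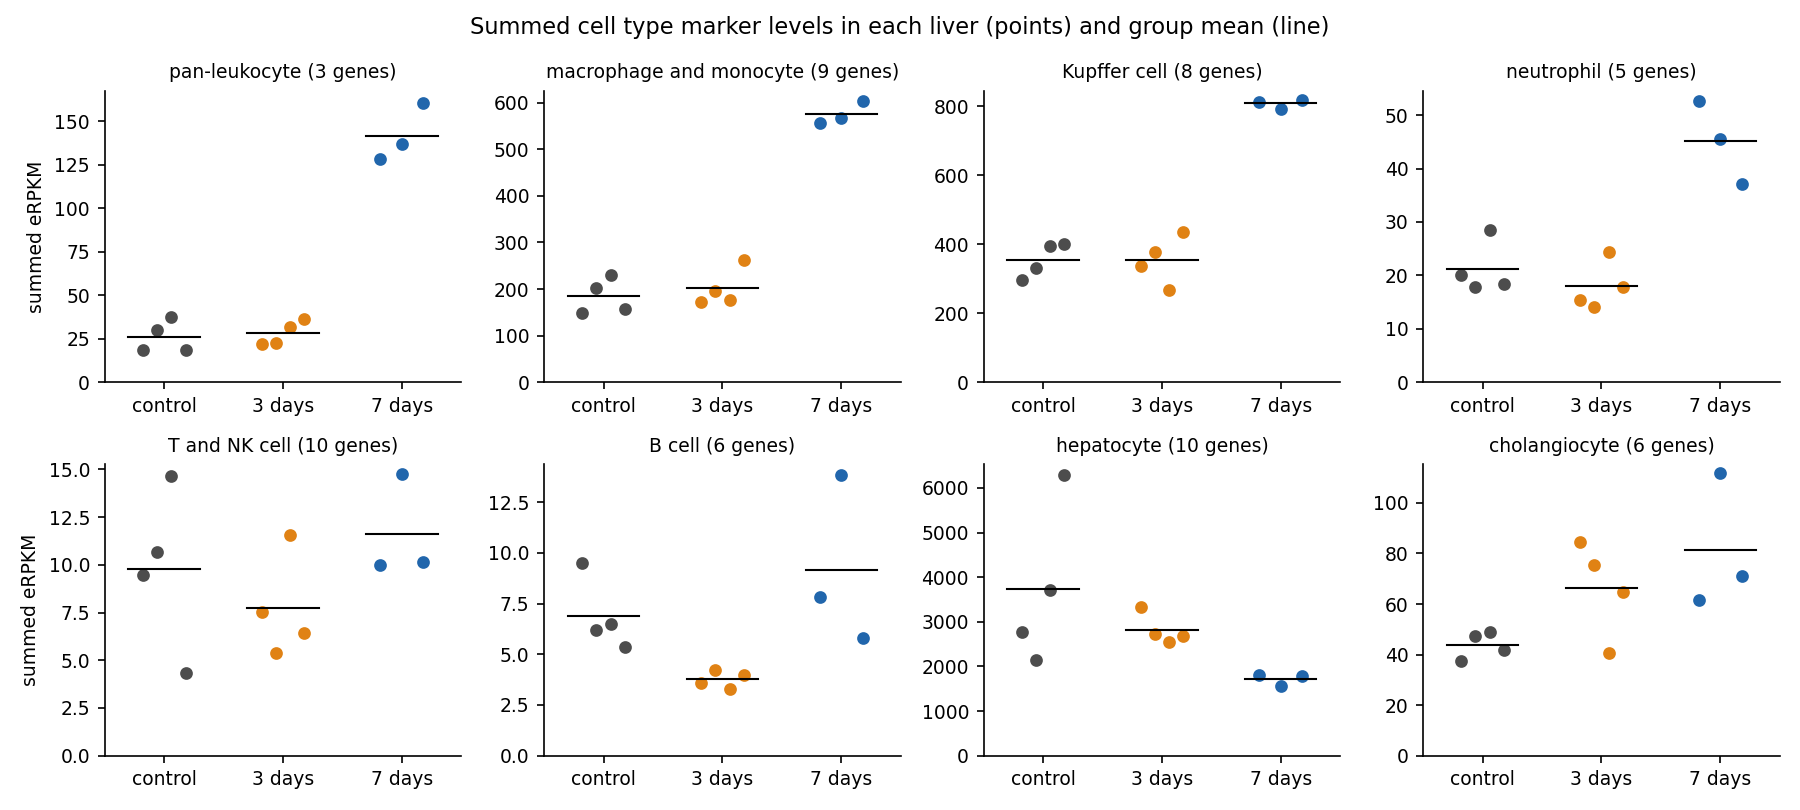
Summed eRPKM (y axis, starting at 0) of cell type marker lists in each liver (points), with the group mean as a line; the number of genes summed is given above each panel. Pan-leukocyte, macrophage and Kupffer cell sums at 7 days (128 to 160, 557 to 604 and 794 to 819) lie above all other livers, and hepatocyte marker sums at 7 days lie below them. Among control livers the hepatocyte sum was higher in shallower libraries.

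Within groups, values of the members tended to vary together. Deviations of log2 levels from the group means correlated positively in 44 of 45 pairs of members (median Pearson r of 0.60 over 11 livers, highest 0.90 for Nfkb2 and Nfkbia and lowest -0.13 for Bcl3 and Birc3), which is a description of genes measured in the same libraries, and other pairs of genes were not examined. Control liver 4, the shallowest library, had the lowest value of its group for 9 of the 10 members, and liver 3 at 3 days had the highest for 9 of the 10. Without the 2 shallowest libraries, control livers 3 and 4, a choice made after seeing the data that leaves 2 of the 4 controls, Tnfaip3, Nfkbie and Nfkb2 were still called at 7 days against controls, and Relb was not (log2 fold change 0.91, adjusted p = 0.0398). With log2 depth as a covariate Tnfaip3 and Nfkbie were still called, while Nfkb2 (log2 fold change 1.28, adjusted p = 0.0233) and Relb (0.82, adjusted p = 0.0599) were not. The median log2 fold change over all genes tested was then 0.070, beside 0.26 without the covariate. The group median of depth was highest at 7 days, although control liver 2 was deeper than livers 1 and 3 at 7 days, so depth is in part confounded with the group.

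The genes whose levels followed each called member most closely over the 11 livers were named by Pearson correlation of log2 levels among all genes tested. For Tnfaip3 these were Tead4 (r of 0.99), which encodes a TEAD factor, Cdc25b and Slc35f2. Nfkbie was followed most closely by Parvg (0.99), Rbpms and Usp25, Nfkb2 by Cmklr1 (0.99), Ptpn6 and Plod3, and Relb by Ggn (0.98), Pag1 and Hps3. Such correlations include the step between 7 days and the other groups, so deviations from the group means were also ranked. By that measure the closest genes were Cyp4f41-ps, Thpo and Rab23 for Tnfaip3, Rbpms, 4930404I05Rik and Ash2l for Nfkbie, Sla, Lmf2 and Pmf1 for Nfkb2, and Gtf3c5, Dtymk and Hps3 for Relb. Rbpms for Nfkbie and Hps3 for Relb appeared by both measures.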

How the data were processed

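RNA-seq libraries of 11 livers were analysed (4 control, 4 at 3 days and 3 at 7 days). The authors deposited eRPKM values per gene, that is RPKM based on exons; the submitters' processing notes name the build mm9, TopHat2 2.0.8, SAMtools, featureCounts 1.4.5-p1 and DESeq2, and the gene annotation is not given in the sources used here. The table also holds 3 columns of the authors' comparison (mean signal, log2 fold change and adjusted p at 7 days against controls), which were not used.

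For each gene a value of 1 read was sought at which all its values came within 0.1 read of whole numbers. It was found for all 177553 values above 0, which gave the depth. The match follows in part from this search and is not an independent check. This depth counts reads on genes only. The 14244 genes that reached 0.5 eRPKM in 3 or more libraries were fitted with limma 3.58.1 (R 4.3.3; trend) on log2(eRPKM + 0.5), in 1 fit of 3 groups without covariates. limma replaced the count test of the study because RPKM are not counts. p-values were adjusted by Benjamini-Hochberg over all genes tested. The scripts were tested on simulated data. Exact two-sided permutation tests of the members (30 in all) were not used for calls. The labels do not say more of the replicates than that they are separate livers.

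The members and gene lists were chosen with earlier results of these data known. Named genes were all 10 members, up to 3 called genes with the largest change per pathway list, and the 3 most similar genes per called member. Alternatives covered pseudocount, filter, scaling, variance model, covariates, recovered reads, threshold and leaving out each liver.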

Additional observations from a re-analysis of the deposited data

Results flagged for a closer look

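In 5 members the effect of YAP induction at 7 days differed from that at 3 days by the test of the difference itself, which equals the contrast of 7 against 3 days because both effects share the control livers. The difference was 2.42 on the log2 scale for Tnfaip3 (limma, adjusted p = 5.08e-05), 2.19 for Nfkbie (adjusted p = 0.000123), 1.67 for Nfkb2 (adjusted p = 0.00189), 1.48 for Relb (adjusted p = 0.00350) and 0.97 for Nfkb1 (adjusted p = 0.00198). In each of these 5 genes, named because this contrast called them, all 3 livers at 7 days lay above all 4 at 3 days, as in 31.3% of all tested genes. Leukocyte and macrophage marker sums differed between 3 and 7 days in the same direction, and their part in the differences was not tested. By Dixon's test no value of a single member stood apart in any of the 20 sets of 4 livers, and the groups of 3 livers were not examined. That test takes 1 member at a time and cannot show a library that is shifted in all members. Control liver 4 was the lowest of its group for 9 of the 10 members, and liver 3 at 3 days the highest for 9 of the 10.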

How the results depend on the processing

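Each member was refitted under 28 alternatives. Tnfaip3 and Nfkbie were called in all of them, at 7 days against controls and against 3 days, with log2 fold changes over controls of 2.40 to 2.98 and 1.74 to 2.35. Members called at 7 days against controls numbered 4, 7 with a limit of 0.05 on the adjusted p and none on the fold change, 2 with log2 depth as covariate, and 3 to 5 without single livers. Of the 14244 genes tested, 2561 were called higher in that comparison, 3969 at the looser limit and 1099 with depth. The counts of members and of all genes thus moved in the same directions. Without single livers 1513 to 2768 of all genes tested were called higher. Against 3 days, 5 members were called, 3 with depth as covariate, 3 in livers with more Xist than Ddx3y, and 2 to 5 without single livers, fewest without liver 3 at 7 days. Among all genes tested 1997 were called higher there, 1091 with depth, 1046 in livers with more Xist and 983 to 2618 without single livers. Of the 58 other pathway genes, 19 were called at 7 days against controls, 32 at the looser threshold, 7 with depth, 10 without the 2 shallowest libraries and 12 to 22 without single livers, fewest without liver 3 at 7 days. Against 3 days, 19 were called, 31 at the looser threshold, 12 with log2 Xist, 11 with depth, 9 in livers with more Xist and 9 to 22 without single livers, 10 without liver 1 or liver 2 at 7 days and fewest without liver 3. With log2 Xist 1326 of all genes were called higher and 558 lower against 3 days. At 3 days none of the 58 was called, and 1 was called without liver 1 at 3 days. The causes were not tested.

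Signs turned only at 3 days against controls, where no member was called. Without the 2 shallowest libraries Rela was -0.017, Nfkb2 -0.082 and Nfkbie -0.16. With depth, Nfkb2 was -0.071 and Nfkbie -0.073. With limma-voom on recovered reads they were -0.019 and -0.084. In livers with more Xist, Nfkb2 was -0.019, Nfkbie -0.25 and Bcl3 -0.20. Nfkbie was -0.0078 with size factors, and Nfkbia 0.20 with the label suffix MF as covariate. Without single livers, ranges were -0.33 to 0.071 for Relb, -0.087 to 0.40 for Rel, -0.17 to 0.27 for Nfkb2, -0.14 to 0.10 for Nfkbia, -0.24 to 0.14 for Nfkbie and -0.19 to 0.42 for Bcl3.

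The replicate numbers did not pair the livers (10 same-numbered pairs, r of -0.22 to 0.27, 2 of them over 0.1, 3 best with their own number). With the replicate block 3 members were called at 7 days against controls, 4 against 3 days and none at 3 days, and the member lost in both was Relb. All genes called higher and lower with this block were 2032 and 688 at 7 days against controls, and 1429 and 552 against 3 days. Genes called higher and lower at 7 days against controls were 2561 and 822 (75.7% higher), 1951 and 1254 with size factors (60.9%), 1863 and 1785 with quantile normalization (51.1%), 1099 and 577 with depth (65.6%), 3969 and 1421 at the looser threshold, 1406 and 579 without the 2 shallowest libraries, 1552 and 617 in livers with more Xist, and 1652 and 518, 1608 and 549, and 1513 and 465 without liver 1, 2 or 3 at 7 days. Against 3 days the counts were 1997 and 756 (72.5% higher), 1516 and 1181 with size factors (56.2%), 1414 and 1404 with quantile normalization (50.2%), 3621 and 1464 at the looser threshold, 1091 and 588 with depth, 1046 and 421 in livers with more Xist, and 1138 and 409, 1033 and 400, and 983 and 360 without liver 1, 2 or 3 at 7 days. At 3 days 6 genes were called, 40 higher and 1 lower at the looser threshold, 53 higher without liver 1 at 3 days, and 0 to 16 under the others, 0 without trend among them. Depth was lowest in control liver 4, where Relb had 2 reads.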
